A study of Homo sapiens with 2 samples.

Results

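The 9 genes PCK1, G6PC, FBP1, TAT, TDO2, HPD, HGD, AGXT and PRODH2 encode liver enzymes that make glucose or break down amino acids. They were taken by symbol from the 36601 genes of the deposited count tables, and all 9 were found. The cells were HepaRG, an established human hepatic cell line sold as a differentiated culture. They were grown for 7 days on collagen and then kept for 24 h in 0.1% DMSO, the solvent control for the study's stress-inducing compounds, before they were dissociated, fixed and sequenced as single cells by a 3' method. Both libraries belong to this 1 vehicle group, and both carry the same biological replicate number in the labels, so SDs and p-values here reflect how these libraries differ, possibly for technical reasons alone. The line descends from 1 liver tumour, so it stands for 1 genetic background.

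In liver, gluconeogenesis turns lactate, glycerol and amino acid carbon into glucose. PCK1 makes phosphoenolpyruvate from oxaloacetate, FBP1 removes a phosphate from fructose 1,6-bisphosphate, and G6PC releases free glucose from glucose 6-phosphate. TAT, HPD and HGD act in sequence on tyrosine, from the aminotransferase to the enzymes that form and open homogentisate. TDO2 opens the ring of tryptophan at the entry to the kynurenine pathway, AGXT converts glyoxylate to glycine in peroxisomes, and PRODH2 oxidises hydroxyproline, a source of glyoxylate. Transcription of several of these genes, TAT, PCK1 and TDO2 among them, is known to respond to glucocorticoid or cAMP signals in hepatocytes.

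Each cell was classed by its share of albumin (ALB) UMIs, which are sequenced molecules counted once each. Cells with at least 50 ALB UMIs per 10000 UMIs were called ALB-high, those with 5 to 50 ALB-intermediate, and the rest other cells. Replicate 1 had 306 ALB-high, 424 ALB-intermediate and 3724 other cells, and replicate 2 had 407, 493 and 3994. The libraries held 85475317 and 57246647 UMIs, and their kept cells had medians of 17568 and 10407 UMIs. The label hepatocyte fitted the ALB-high cells best: 15 hepatocyte markers without ALB summed to 14964 and 14179 counts per 1000000 UMIs (CPM) there, 3908 and 3918 in ALB-intermediate cells, and 879 and 947 in other cells. The 12 mesenchymal markers summed to 1015 and 971 CPM in ALB-high, 584 and 629 in ALB-intermediate, and 1097 and 1082 in other cells. Of these markers, COL1A2 and THY1 had 0 UMIs in the ALB-high and ALB-intermediate cells and only 2 to 4 UMIs per library in other cells. Proliferation markers ran the other way from ALB, at 900 and 849, 1625 and 1513, and 2225 and 2256 CPM, as did the biliary keratin KRT19, at 217 and 261, 324 and 369, and 692 and 699 CPM. The 10 biliary markers, KRT19 included, summed to 353 and 381, 382 and 422, and 722 and 730 CPM. KRT19 made up most of each sum, and the rest of that list together was highest in ALB-high cells. Median mitochondrial share also differed between the classes, at 13.5% and 13.6% in ALB-high, 11.1% and 11.7% in ALB-intermediate, and 8.43% and 8.61% in other cells. The part of these differences in the enzyme levels was not tested.

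Promoter sequence is shown for 4 of the enzymes because their outcomes differed: PRODH2 and TDO2 were called higher in ALB-high cells, G6PC had 14 of its 16 UMIs there, and FBP1, on 17 UMIs, was not called. The stretches are RefSeq promoters of GRCh38.p14, from 250 bases before the start of transcription up to the first base of any GENCODE 29 exon of the gene. They lie at chr17:42900549-42900796 on the plus strand for G6PC, chr19:35812895-35813095 on the minus strand for PRODH2, chr4:155903446-155903692 on the plus strand for TDO2, and chr9:94639519-94639768 on the minus strand for FBP1. Capitals mark matches on either strand to the TATA box (TATAAA), an HNF1 core (GTTAAT) and an HNF4 core (CAAAG).
G6PC: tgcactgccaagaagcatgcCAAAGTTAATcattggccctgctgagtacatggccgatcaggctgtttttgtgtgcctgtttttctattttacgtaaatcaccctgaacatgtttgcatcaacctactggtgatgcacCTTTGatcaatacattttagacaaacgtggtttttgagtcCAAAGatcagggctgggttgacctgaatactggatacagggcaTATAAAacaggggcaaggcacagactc
PRODH2: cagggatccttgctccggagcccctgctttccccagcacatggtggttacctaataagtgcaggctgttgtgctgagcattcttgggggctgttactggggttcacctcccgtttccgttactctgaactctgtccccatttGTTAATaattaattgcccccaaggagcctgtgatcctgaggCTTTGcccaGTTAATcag
TDO2: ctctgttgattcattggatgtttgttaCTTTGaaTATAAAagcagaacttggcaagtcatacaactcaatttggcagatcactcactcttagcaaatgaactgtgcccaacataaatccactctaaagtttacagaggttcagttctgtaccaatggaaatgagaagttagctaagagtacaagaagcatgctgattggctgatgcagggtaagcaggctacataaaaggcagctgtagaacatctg
FBP1: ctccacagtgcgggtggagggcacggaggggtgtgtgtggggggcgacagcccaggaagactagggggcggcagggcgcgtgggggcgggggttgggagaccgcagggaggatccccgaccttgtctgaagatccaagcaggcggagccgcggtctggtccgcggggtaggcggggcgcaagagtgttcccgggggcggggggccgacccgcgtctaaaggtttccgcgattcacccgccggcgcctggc
G6PC held a TATA box 29 bases before its start and an HNF1 core 226 bases before it, where it overlaps an HNF4 core. PRODH2 held HNF1 cores 108 and 58 bases before its start, and TDO2 a TATA box match 216 bases before its start. FBP1 held none of these 3 motifs, and its window had 72.8% G and C, against 54.4% for PRODH2, 44% for G6PC, 40% for TDO2, 61.2% for AGXT, 68.8% and 64.8% for the windows of HPD, which also held none of the 3, and a median of 58% over 35116 promoters. RefSeq windows were found for 6 of the 9 enzymes, with 7 entries because HPD has a pair of starts. Over all promoters of this length, 10.7% held the TATA box, 6.23% the HNF1 core and 42.1% the HNF4 core, which was also present in AGXT. The full cAMP element TGACGTCA was in 1.65% of all promoters and in none of the 7 entries, while its shorter form TGACG, which is contained in it, was in 21.2% and in HPD. The glucocorticoid element core AGAACA was in 12.4% and in TDO2 and HPD, and is not capitalised. The C/EBP pattern TTGCNNAA, in 9.05% of promoters, and the FOX patterns TGTTTAC and TATTTAC, in 2.98% and 2.39%, matched none of the entries. These are matches of letters and not evidence of binding.

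Most of the enzymes were higher in ALB-high cells than in other cells, by counting ratios that ranged from 4.56 for HGD to 428 for AGXT. In edgeR's quasi-likelihood test, with counts summed per library and class, 7 of the 8 enzymes that could be fitted were called higher, and 0 were called lower (adjusted p below 0.05). Over all 23711 genes tested, 21.1% were higher. G6PC passed the filter of 10 UMIs only through its 14 UMIs in ALB-high cells and so had to differ, and its calls are given as a description; of the 7 enzymes that pass without ALB-high cells, 6 were called higher. PCK1, with 9 UMIs in total, fell below the filter and was not tested. The largest adjusted p among those 6 was 8.2e-09, for TAT, and FBP1 was not called. ALB-intermediate cells were higher than other cells for 5 of the 8 (TDO2, HPD, HGD, AGXT and PRODH2), against 14.8% of all genes. ALB-high cells were higher than ALB-intermediate cells for 7 of the 8, G6PC included, against 10.7% of all genes. Of the 7 enzymes that pass without ALB-high cells, 6 were called higher there too. The fit had 2 residual degrees of freedom and took its spread from all genes together, so its p-values rest largely on counting error.

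**Figure D1:**
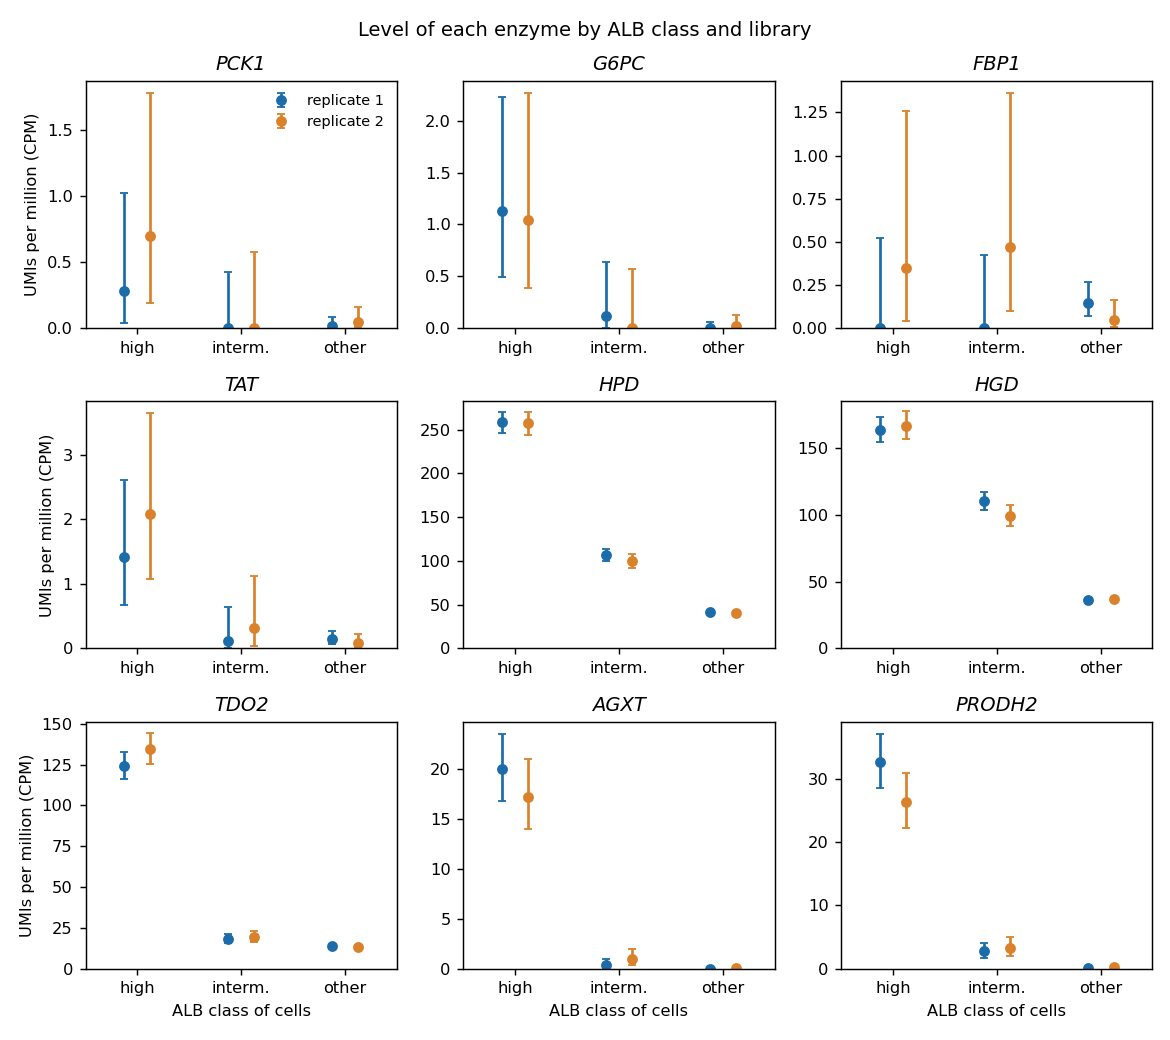
Level of each enzyme in CPM (vertical axis, starting at 0 and scaled per gene) in ALB-high, ALB-intermediate (interm.) and other cells. Each point is 1 library and each bar its exact 95% counting interval. HPD, HGD, TDO2, AGXT and PRODH2 stand highest in ALB-high cells of both libraries, while the bars of PCK1 and FBP1 are wide because they rest on 9 and 17 UMIs.

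The gluconeogenic enzymes were at the edge of detection. PCK1 (chr20:57561080-57568112 in GRCh38, GENCODE 29) had 2 and 4 UMIs in the ALB-high cells of replicates 1 and 2, 0 and 0 in ALB-intermediate cells, and 1 and 2 in other cells. Those UMIs gave 0.49 ± 0.29 CPM in ALB-high cells (SD, n = 2 libraries), and a level ratio of 17.8 over other cells with a 95% counting interval of 3.81 to 110. In ALB-intermediate cells, 0 UMIs have exact 95% upper limits of 0.422 and 0.574 CPM, counting error only. With no filter on low counts PCK1 entered the fit and was called, at a log2 difference of 3.95 ± 1.61 (SE) between ALB-high and other cells (adjusted p = 0.043, edgeR), on 6 UMIs against 3.

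G6PC (chr17:42900797-42913369) had 8 and 6 UMIs in ALB-high cells, 1 and 0 in ALB-intermediate cells and 0 and 1 in other cells. It passed the count filter only through the ALB-high cells, so the values below are a description. Its level in ALB-high cells was 1.09 ± 0.06 CPM, and its ratio over other cells was 125 (19.0 to 5275), from 14 UMIs against 1. The fitted log2 difference was 6.41 ± 1.15 (SE). Against ALB-intermediate cells it was 4.03 ± 1.38 (adjusted p = 0.019, edgeR), which became 0.054 when no filter on low counts was used. All 14 UMIs of ALB-high cells lay in cells with 150 or more ALB UMIs per 10000, and 0 lay in the 168 and 240 cells with 50 to 150.

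FBP1 (chr9:94603133-94640249) had 0 and 2 UMIs in ALB-high cells, 0 and 3 in ALB-intermediate cells, and 10 and 2 in other cells. The libraries therefore ordered the classes in opposite ways. Its log2 difference between ALB-high and other cells was 0.68 ± 1.53 (adjusted p = 0.77, edgeR), and the counting ratio was 1.49 (0.16 to 6.67). A difference was not detectable at this depth. The gene overlaps PCAT7 on the opposite strand, which had 256 UMIs, and whether the authors' counting used strand is not given in the sources used here.

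Of 19 genes of gluconeogenesis and glycogen use in the fit, 16 were higher in ALB-high cells and 1 lower (G6PC3, a broadly expressed glucose-6-phosphatase, by a log2 difference of -0.41 ± 0.10). Over all genes tested, 21.1% were higher and 22.3% lower, and these are the shares to set beside each list count. The enzyme of this list with the highest CPM in ALB-high cells was the glycolytic enolase ENO1, at 1385 CPM and a log2 difference of 0.37 ± 0.03. Chosen after their values were seen, the mitochondrial form PCK2 had 31.9 and 36.9 CPM in ALB-high cells and 28.4 and 32.0 in other cells, and the glucose 6-phosphate transporter SLC37A4 had a log2 difference of 1.75 ± 0.08. PCK2, which carries out the reaction of PCK1 in mitochondria, was called higher by 0.32 ± 0.08. The list's median log2 difference was 0.73, against -0.06 over all genes.

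The tyrosine enzymes were all called higher in ALB-high cells, TAT on 39 UMIs in all and HPD and HGD on 9581 and 7842. TAT (chr16:71565660-71577130), the first step, had 10 and 12 UMIs in ALB-high cells, 1 and 2 in ALB-intermediate cells, and 10 and 4 in the far more numerous other cells. That gave 1.42 and 2.09 CPM in ALB-high cells against 0.14 and 0.089 in other cells, a log2 difference of 3.88 ± 0.64 (adjusted p = 8.2e-09, edgeR). The counting ratio was 9.81 in replicate 1 and 23.4 in replicate 2. Thinning every cell to 4000 UMIs left 3.09 with an adjusted p of 0.13. It was detected in 1.96% and 1.97% of ALB-high cells, with at most 4 UMIs in 1 cell in both libraries. TAT overlaps TAT-AS1 on the opposite strand, with 127 UMIs.

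HPD (chr12:121839527-121863596), which makes homogentisate, was at 258 and 257 CPM in ALB-high cells, 107 and 99.4 in ALB-intermediate cells, and 41.5 and 40.9 in other cells. The log2 difference between ALB-high and other cells was 2.78 ± 0.05. ALB-intermediate cells lay near the middle of that difference on the log2 scale, at 49.5% of it, with 1.38 ± 0.06 over other cells and 1.40 ± 0.06 below ALB-high cells. HPD was present in most ALB-high cells, with at least 1 UMI in 90.2% and 83.8% of them, against 41.0% and 30.4% of other cells. In cells thinned to 4000 UMIs these shares averaged 56.1% and 13.8%. HPD overlaps AC079360.1 on the opposite strand, with 6 UMIs.

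HGD (chr3:120628173-120682571), which opens the homogentisate ring, was at 164 and 167 CPM in ALB-high cells, 110 and 99.1 in ALB-intermediate cells and 35.9 and 36.7 in other cells. It had the smallest log2 difference of the 7 enzymes called, 2.32 ± 0.06. ALB-intermediate cells already held 68.3% of that log2 difference, at 1.58 ± 0.06 over other cells, and ALB-high cells were a further 0.73 ± 0.06 higher. At least 1 UMI was found in 94.4% and 86.2% of ALB-high cells and in 39.4% and 29.6% of other cells.

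Of the 8 phenylalanine and tyrosine genes fitted, 6 were higher in ALB-high cells and 0 lower, against 21.1% and 22.3% of all genes. The list's median log2 difference was 1.58. FAH, the last enzyme of the pathway, named after its values were seen, had a log2 difference of 0.85 ± 0.06.

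TDO2 (chr4:155854738-155920406) differed from HPD and HGD in where its level climbed. It was at 124 and 135 CPM in ALB-high cells, 18.4 and 19.6 in ALB-intermediate cells, and 14.0 and 13.4 in other cells. ALB-high cells stood apart, and the other classes were close together. The log2 difference was 3.37 ± 0.06 for ALB-high against other cells and 2.85 ± 0.08 against ALB-intermediate cells, but only 0.52 ± 0.10 for ALB-intermediate against other cells (adjusted p = 2.7e-06, edgeR). That last value fell to 0.25 (adjusted p = 0.082) when the class limits were set to 2 and 20 ALB UMIs per 10000. The intermediate cells thus held 15.3% of the log2 difference. Few cells carried much of the TDO2: 50% of the UMIs of ALB-high cells came from 29 of 306 and 38 of 407 cells, whose highest counts were 33 and 31. In other cells 20.3% and 12.6% had a UMI, and the highest count in a cell was 6 and 3. TDO2 overlaps ASIC5 on the opposite strand, with 62 UMIs.

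Of 12 tryptophan genes fitted, 7 were higher in ALB-high cells and 2 lower, with a median of 0.90. ACMSD, which steers the kynurenine pathway away from NAD synthesis, was at 81.9 and 70.5 CPM in ALB-high and 2.08 and 2.14 in other cells, a log2 difference of 5.32 ± 0.10. AADAT and KYNU, which act on kynurenine, were lower, at -0.50 ± 0.20 and -0.23 ± 0.07.

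AGXT and PRODH2, the glyoxylate enzymes, were far lower outside ALB-high cells. AGXT (chr2:240868479-240880502) had 141 and 99 UMIs in ALB-high cells, 3 and 6 in ALB-intermediate cells, and 2 and 3 in other cells, or 18.6 ± 1.95, 0.64 ± 0.42 and 0.048 ± 0.027 CPM. ALB-high cells held 94.5% of all its UMIs. The log2 difference from other cells was 8.71 ± 0.29. Its size depends on few UMIs in other cells, and the counting ratio was 692 in replicate 1 and 258 in replicate 2, and 428 (181 to 1329) over both. ALB-intermediate cells were 3.66 ± 0.80 above other cells (adjusted p = 2.8e-05, edgeR), from 9 UMIs against 5, and with class limits of 2 and 20 this was 1.37 (adjusted p = 0.52). Within ALB-high cells, AGXT was detected in 18.3% and 14.3%, and 12 and 17 cells held 50% of its UMIs.

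PRODH2 (chr19:35799988-35813299) had 230 and 151 UMIs in ALB-high cells, 24 and 21 in ALB-intermediate cells, and 9 and 14 in other cells. Its levels in the same order were 29.4 ± 4.46, 3.01 ± 0.37 and 0.22 ± 0.13 CPM. The log2 differences were 7.30 ± 0.20 for ALB-high against other cells, 3.89 ± 0.37 for ALB-intermediate against other cells and 3.40 ± 0.19 for ALB-high against ALB-intermediate cells. The counting ratio of ALB-high over other cells was 251 in replicate 1 and 84.2 in replicate 2, with 41.5% and 26.5% of ALB-high cells holding a UMI.

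All 10 genes of the glyoxylate and hydroxyproline list were fitted, 8 were higher in ALB-high cells and 0 lower, and the median log2 difference of 3.83 was the largest of the 9 lists. HAO1, the peroxisomal oxidase that makes glyoxylate from glycolate, was at 40.8 and 36.9 CPM in ALB-high cells and at 0.12 and 0.089 in other cells, a log2 difference of 8.60 ± 0.20. GRHPR, which reduces glyoxylate, had the highest CPM of the list in ALB-high cells, 245 and 261 CPM, with a log2 difference of 1.39 ± 0.05.

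**Figure D2:**
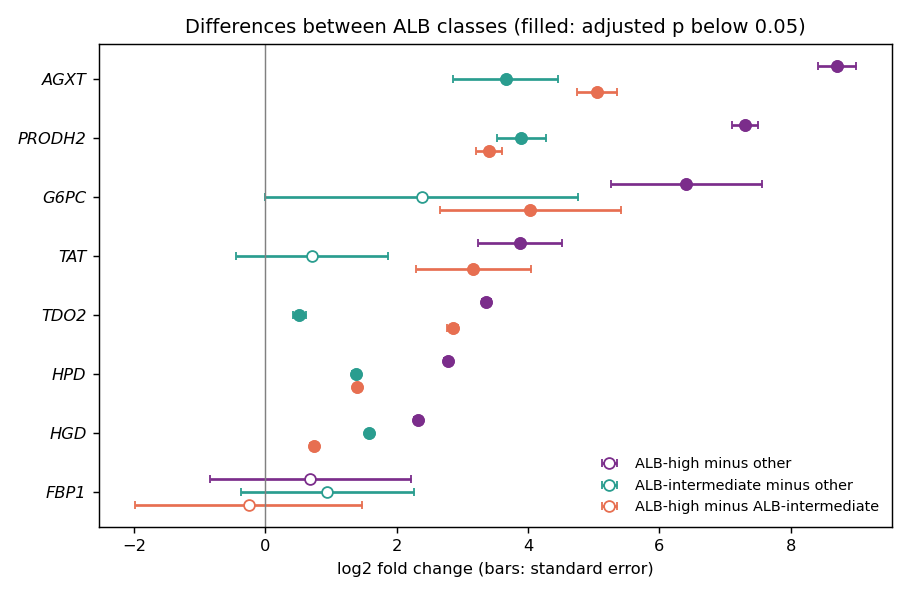
Log2 fold change with its standard error (horizontal axis) for the 8 enzymes fitted, for 3 comparisons between ALB classes; filled points had an adjusted p below 0.05 in edgeR's quasi-likelihood test. AGXT and PRODH2 lie farthest right at 8.71 and 7.30 for ALB-high minus other cells, TDO2 is at 0.52 for ALB-intermediate minus other cells, and FBP1 has no filled point.

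The cells were also divided into 8 narrower bins of ALB, from 0 to 150 or more ALB UMIs per 10000. Levels are given in CPM, and the order in which the enzymes climbed depends on the scale. ALB-intermediate cells held 53.4% of the PRODH2 difference between ALB-high and other cells on the log2 scale, but 9.54% in CPM. For HPD these shares were 49.5% and 28.6%. HGD was at 31.5 and 33.3 CPM in cells with 0 ALB UMIs, 95.6 and 88.0 CPM in the bin from 5 to 15, and 184 and 183 CPM in the top bin. HPD went from 36.0 and 36.8 to 105 and 88.0 and then 356 and 369 CPM in the same bins. TDO2 was flat at 11.9 to 17.7 CPM in all 5 bins below 15, then reached 21.7 and 24.5, 51.1 and 67.5, and 224 and 235 CPM. PRODH2 was at 0.98 and 1.35 CPM in the bin from 5 to 15 and at 52.6 and 42.5 CPM in the top bin. AGXT had 0 UMIs in both libraries in the bins from 2 to 5 and 5 to 15, and climbed from 2.46 and 6.69 CPM in the bin from 50 to 150 to 43.8 and 32.9 CPM in the top bin.

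A low and a high step of this range were tested after the bins had been seen. Between cells with 5 to 15 and with 0 ALB UMIs, 3 of the 8 enzymes were higher, against 8.37% of all genes: HGD by 1.54 ± 0.09, HPD by 1.44 ± 0.08 and PRODH2 by 3.71 ± 0.86 on the log2 scale. The PRODH2 call rests on few UMIs, 4 and 4 in the bin from 5 to 15 against 0 and 4 in cells with 0 ALB UMIs. TDO2 differed by 0.07 ± 0.16 (adjusted p = 0.86, edgeR). Between the top bin and the bin from 50 to 150, 6 of the 8 were called higher, against 6.71% of all genes. That count includes G6PC, which passed the filter only through the top bin, with 14 UMIs against 0. G6PC therefore had to differ, and its call is given as a description. AGXT was higher by 3.24 ± 0.27, TDO2 by 2.06 ± 0.09, PRODH2 by 1.61 ± 0.18, HPD by 1.07 ± 0.07 and HGD by 0.37 ± 0.08. TAT, at 1.69 ± 0.79 (adjusted p = 0.16, edgeR), and FBP1 were not called.

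**Figure D3:**
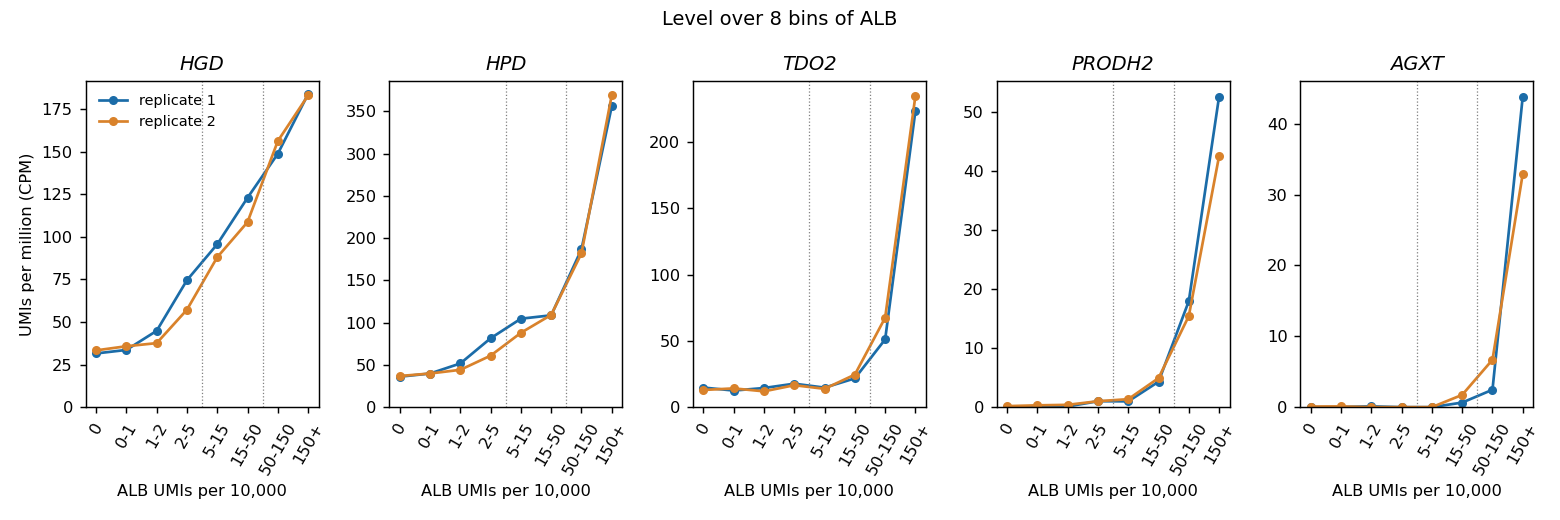
Level in CPM (vertical axis, starting at 0 and scaled per gene) over 8 bins of ALB UMIs per 10000 (horizontal axis), 1 line per library; dotted lines mark the class limits of 5 and 50. HGD climbs over most bins, from 31.5 to 184 CPM in replicate 1, TDO2 stays between 11.9 and 17.7 CPM below 15 ALB UMIs, and AGXT reaches 43.8 and 32.9 CPM in the top bin.

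The enzymes' UMIs were also set against those of ALB. Because ALB set the classes, a ratio to it is partly fixed by that choice, and the values are a description. Per 1000 ALB UMIs, HPD had 13.8 and 14.8 UMIs in ALB-high cells, 54.3 and 49.0 in ALB-intermediate cells, and 771 and 614 in other cells. HGD went from 8.73 and 9.62 in ALB-high to 666 and 551 in other cells, and TDO2 from 6.63 and 7.76 to 259 and 201. PRODH2 was at 1.74 and 1.51 in ALB-high, 1.40 and 1.61 in ALB-intermediate, and 2.41 and 4.69 in other cells, where the ratios rest on 9 and 14 UMIs. AGXT was at 1.07 and 0.99, 0.17 and 0.46, and 0.54 and 1.00, the last pair on 2 and 3 UMIs. The part of RNA free in the suspension in the levels of ALB-intermediate and other cells was not tested, nor was that of barcodes holding more than 1 cell.

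Within ALB-high cells the enzymes varied together to different degrees. Correlations of log-scaled UMIs per 10000 over the 306 and 407 cells are given as descriptions, since cells of 1 library share its depth and preparation. With ALB, r was 0.51 and 0.49 for TDO2, 0.48 and 0.49 for HPD, 0.47 and 0.43 for AGXT, 0.39 and 0.31 for PRODH2, and 0.22 and 0.09 for HGD. Between enzymes, AGXT and TDO2 had 0.43 and 0.30, and HPD and HGD, neighbours in the same pathway, 0.10 and 0.09. PRODH2 was detected in 69.6% and 48.3% of cells with AGXT and in 35.2% and 22.9% of those without it. The cells with AGXT were deeper, with medians of 23805 and 16157 UMIs against 20032 and 12142.

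The genes most like each enzyme over ALB-high cells, were ranked by mean r over both libraries among 10687 genes. TDO2 was nearest to the vitamin D binding protein GC at 0.54, MIR122HG, the host gene of a liver microRNA, at 0.53 and the transthyretin gene TTR at 0.51. HPD was nearest to TF at 0.52, RBP4 at 0.52 and GC at 0.50, and AGXT to APOA1 at 0.55, KNG1 at 0.55 and APOC3 at 0.54. PRODH2 was nearest to MTTP, which loads lipid onto lipoproteins, at 0.35, APOH at 0.35 and RBP4 at 0.35. The highest value for HGD was 0.22, with A1CF, followed by KLC4 at 0.21 and RAB17 at 0.20.

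The enzymes were also compared within classes. ALB-high cells were split in each library at the median of the summed UMIs of 20 hypoxia-response genes per 10000 UMIs of the cell, which gave 153 and 203 hypoxia-high cells. Of 7 enzymes fitted, 2 were lower in the hypoxia-high group and 0 higher, against 2.54% of all genes lower. HGD was at 149 and 151 CPM in the hypoxia-high group and at 177 and 185 CPM in the hypoxia-low group, a log2 difference of -0.28 ± 0.09 (adjusted p = 0.029, edgeR). TDO2 was at 88.5 and 127 CPM against 156 and 143 CPM, a log2 difference of -0.51 ± 0.09 (adjusted p = 7.5e-06, edgeR), of which replicate 1 gave -0.84 and replicate 2 -0.17. AGXT was at 13.8 and 19.8 against 25.5 and 14.3 CPM and PRODH2 at 23.7 and 29.5 against 40.6 and 22.6 CPM, in opposite directions in the libraries, and neither was called. HPD, at 273 and 264 against 245 and 250 CPM, was not called either. The groups also differed in depth in opposite ways, with medians of 19042 and 14109 UMIs in the hypoxia-high group and 21835 and 11386 in the hypoxia-low group, and so did their median ALB, at 126 and 129 against 141 and 121 UMIs per 10000; the part of either in these differences was not tested. With cells in the middle of the hypoxia range left out, 0 of the 7 enzymes were called in edgeR (2 had an unadjusted p below 0.05), with TDO2 at -0.73 (adjusted p = 0.21) and HGD at -0.29 (adjusted p = 0.27). With no library term in the fit TDO2 was called at -0.49 (adjusted p = 0.0018, edgeR) and HGD, at -0.28 (adjusted p = 0.098), was not.

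Among other cells, the 25% of cells with the most mesenchymal marker UMIs per 10000 UMIs were compared with the rest. Of 6 enzymes fitted, 2 were lower and 0 higher, against 12.8% of all genes lower. HPD was at 18.5 and 21.6 CPM in the mesenchymal-high cells and 48.6 and 46.9 CPM in the rest, a log2 difference of -1.31 ± 0.07. HGD was at 29.4 and 29.1 against 37.9 and 39.0 CPM, a difference of -0.42 ± 0.06. TDO2, at 14.2 and 14.4 against 13.9 and 13.0 CPM, differed by 0.05 ± 0.09 and was not called. Median ALB was 0 in the mesenchymal-high cells and 0.39 UMIs per 10000 in the rest in replicate 1, and 0 in both groups in replicate 2. Median depth was 16533 and 9887 UMIs against 17572 and 10257. The part of ALB level or depth in these differences was not tested. The 25% with the most proliferation marker UMIs per 10000 UMIs had 3 of 6 enzymes lower and 0 higher, against 20% of all genes lower. HGD was at 25.7 and 26.3 against 40.3 and 41.0 CPM (-0.59 ± 0.06), TDO2 at 9.62 and 9.61 against 15.8 and 14.9 CPM (-0.63 ± 0.09), and HPD at 38.2 and 33.0 against 43.0 and 44.1 CPM (-0.22 ± 0.06). The proliferation-high cells were deeper, with medians of 21846 and 12300 UMIs against 16385 and 9663, and the part of depth in these differences was not tested.

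**Figure D4:**
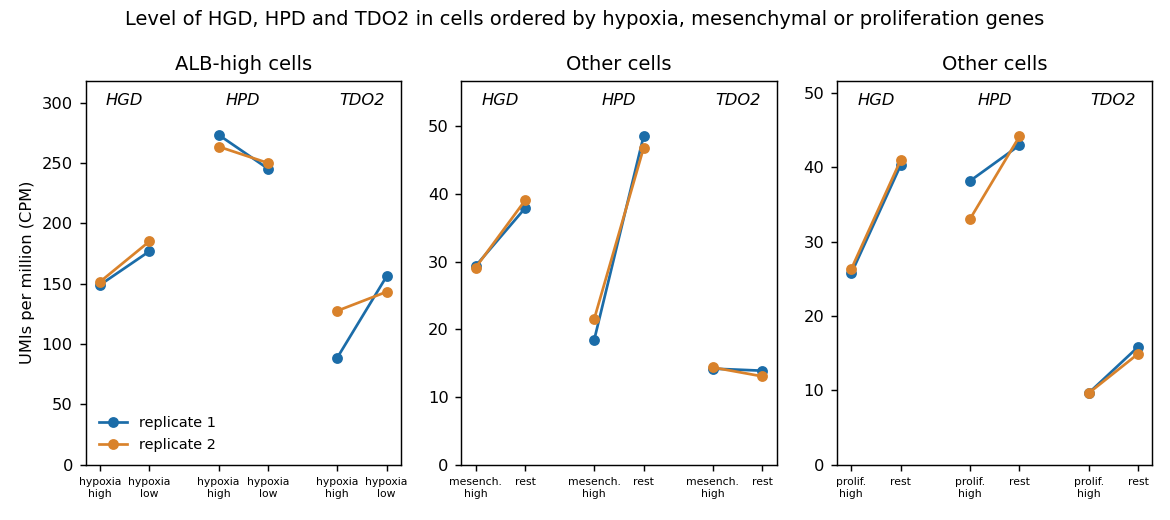
Level of HGD, HPD and TDO2 in CPM (vertical axis, starting at 0) in ALB-high cells split by hypoxia-response genes and in other cells split by mesenchymal (mesench.) or proliferation (prolif.) markers; each line joins the groups of 1 library. HPD drops to 18.5 and 21.6 CPM in mesenchymal-high cells, where TDO2 stays at 14.2 and 14.4 CPM.

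Further lists of amino acid breakdown showed more genes higher than lower in ALB-high cells, against 21.1% higher and 22.3% lower over all genes. Of 11 serine, glycine and histidine genes fitted, 8 were higher and 0 lower (median log2 difference 1.14), led by GLDC of the glycine cleavage system at 4.35 ± 0.10 and the histidine ammonia-lyase HAL at 3.07 ± 0.46, with DLD at the highest CPM, 107. Of 18 branched-chain and lysine genes, 15 were higher and 1 lower (median 0.77), with AASS at 1.60 ± 0.06, MCCC1 at 1.55 ± 0.05 and the lysine-pathway dehydrogenase ALDH7A1 at -0.84 ± 0.06. Of 9 methionine and cysteine genes, 6 were higher and 1 lower (median 0.74). In that list MAT1A, the adult-liver methionine adenosyltransferase, was higher by 3.50 ± 0.09, BHMT by 1.12 ± 0.29 and BHMT2, at the highest CPM, by 0.74 ± 0.05, and MAT2A, the form of dividing and non-hepatic cells, was at -0.25 ± 0.06. Of 7 aminotransferase and glutamate genes, 4 were higher and 1 lower (median 0.49). The alanine aminotransferase GPT was higher by 3.45 ± 0.12, its relative GPT2 was at -0.51 ± 0.14, and the aspartate aminotransferase GOT1 was higher by 1.25 ± 0.05.

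Of 22 regulators fitted, 14 were higher and 2 lower, with a median of 0.95. ONECUT1, a hepatic transcription factor, was at 49.0 and 47.7 CPM in ALB-high and 0.10 and 0.20 CPM in other cells (8.50 ± 0.18). The insulin receptor substrate IRS2, at -0.41 ± 0.08, and CREB1, the cAMP-response factor, at -0.34 ± 0.08, were lower. FKBP5, a glucocorticoid-induced gene, had the highest CPM of the list, 1078, and a log2 difference of 0.20 ± 0.03. Chosen after their values were seen, HNF4A differed by 2.47 ± 0.07 and the glucocorticoid receptor NR3C1 by -0.12 ± 0.06 (adjusted p = 0.083, edgeR). Over all 9 lists, 84 of 115 genes fitted were higher (73.0%) and 8 lower (6.96%), and without the 9 enzymes 77 of 107 were higher. Over all genes tested, 5003 were higher (21.1%) and 5293 lower (22.3%).

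**Figure D5:**
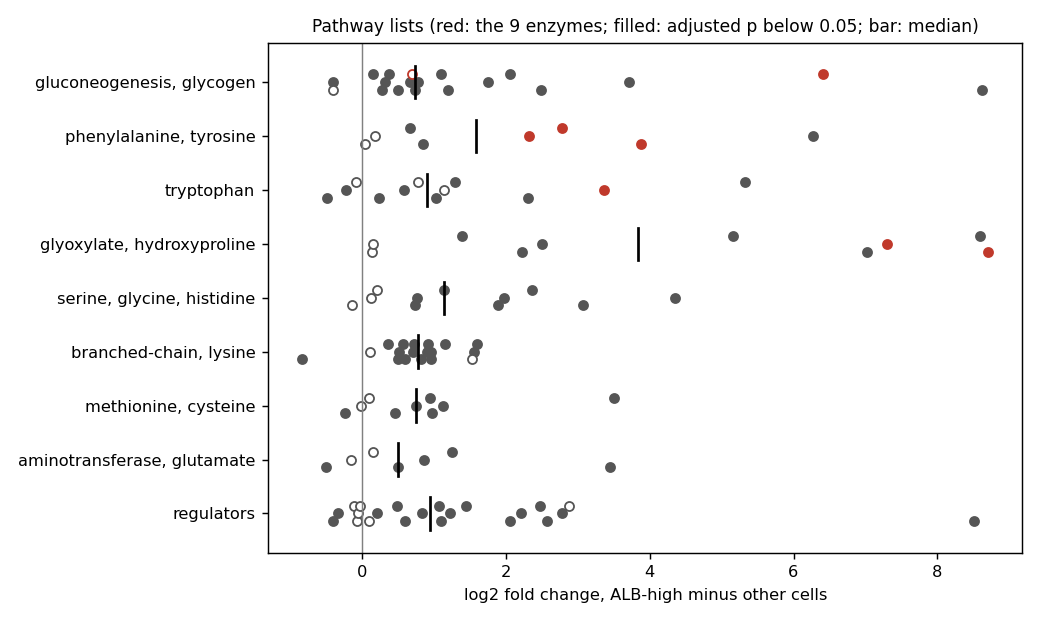
Log2 fold change between ALB-high and other cells (horizontal axis) for each fitted gene of 9 lists (rows); red points are the enzymes described here, filled points had an adjusted p below 0.05 and black bars are list medians. The glyoxylate and hydroxyproline row has the farthest bar, at 3.83, and HAO1 sits beside AGXT at the right, at 8.60.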

How the data were processed

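The 2 libraries of vehicle-treated HepaRG cells were analysed. The deposited values are UMI counts per barcode and gene, which the authors made with Cell Ranger (7.0.0 per the file headers); STAR and GRCh38 come from the submitters' processing notes, and the sources used here give no strand or intron settings. The 12 antibody features held 0 UMIs. The enzymes, lists and class limits were chosen with earlier results of these data known.

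Barcodes were dropped if they had fewer than 500 genes, fewer than 1000 UMIs or a mitochondrial share above 25%, which kept 4454 of 4591 in replicate 1 and 4894 of 4998 in replicate 2; 7 kept barcode sequences occurred in both. Scrublet marked 4 and 0 barcodes, so it has not worked here and no doublets were removed. Scores in the top 4% of a library were found in 6.60% and 7.30% of ALB-intermediate cells. The shares were 4.25% and 2.95% in ALB-high cells and 3.65% and 3.20% in other cells. The part of doublets in the levels of ALB-intermediate cells was not tested. Free RNA was not removed.

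Counts were added up by class within each library and tested with edgeR 4.0.16 (quasi-likelihood, TMM, library as a block, genes with at least 10 UMIs over the sums) with Benjamini-Hochberg adjustment over all genes; ALB set the classes and was left out of gene counts. The library pairs the sums because the classes share it. The SE of a log2 difference was taken as its absolute value divided by the square root of the test's F statistic. It is therefore approximate, above all for enzymes with few UMIs. CPM is UMIs per 1000000 UMIs of a class; intervals are exact 95% limits and cover counting error only. Named genes are the 9 enzymes and, per list, up to 2 called genes at each end of the log2 fold change plus the gene with the highest CPM in ALB-high cells; 2 genes this rule picks are not reported here. Tested on simulated data for ALB-high against other cells (23711 genes), edgeR recovered 45 of 50 genes changed 2-fold and 17 of 50 changed 1.5-fold, with 4 false calls. Only 200 genes were changed there, all with at least 200 UMIs, and 1 fixed spread served every gene. These rates therefore do not cover PCK1, G6PC, FBP1 and TAT, which have fewer UMIs, nor data with far more genes called.

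Alternatives were DESeq2 1.42.0, RLE normalization, other count filters, other ALB limits, classes by hepatocyte markers, stricter cell filters, the top 4% of Scrublet scores removed, thinning to 4000 UMIs, no library block, and each library left out.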

Additional observations from a re-analysis of the deposited data

How the results depend on the processing

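Of 364 tested alternatives to the log2 differences of single enzymes, 350 kept direction and side of the threshold, 8 lost the call and 6 changed sign; DESeq2 gave no adjusted p for 7 more. Those sign changes concerned values that were not called: for G6PC in ALB-intermediate against other cells -1.47 with ALB limits of 2 and 20 and -1.40 with classes by hepatocyte markers, for TAT -0.98 with those ALB limits, and for FBP1 in ALB-high against ALB-intermediate cells 0.044 with stricter cells, 0.41 with those limits and 0.37 with hepatocyte marker classes. The causes were not tested. Enzymes called in ALB-intermediate against other cells numbered 3 with ALB limits of 2 and 20, instead of 5. In the hypoxia split, 0 were called with the middle of the range left out and 1 with no replicate block, instead of 2; the replicate block changed no other call. List genes called lower numbered 5 with DESeq2, instead of 8. Thinning to 4000 UMIs lowered the mean shares of cells with a UMI in ALB-high and other cells, by its construction: TDO2 from 54.1% and 16.5% to 28.9% and 5.55%, HPD from 87.0% and 35.7% to 56.1% and 13.8%, HGD from 90.3% and 34.5% to 47.8% and 12.8%, AGXT from 16.3% and 0.064% to 7.42% and 0.013%, and PRODH2 from 34.0% and 0.28% to 9.27% and 0.078%. Over all genes, ALB-high cells had 5003 higher and 5293 lower; thinning gave 2878 and 3326, and DESeq2 3532 and 3406. ALB-intermediate against other cells had 3498 and 3837, with 1884 and 2066 after thinning and 2071 and 1751 in DESeq2, and ALB-high against ALB-intermediate cells 2536 and 2491, with 1098 and 941 and with 1601 and 1384. The hypoxia split called 445 higher and 416 lower, with no replicate block 334 and 269, and without the middle of the range 42 and 12. Leaving out a library leaves 1 sum per class, so it gives a value with no test; 3 of 68 such values, none of them called with both libraries, changed sign: TAT in ALB-intermediate against other cells (-0.28 without replicate 2), and AGXT and PRODH2 in the hypoxia split (0.46 and 0.38 without replicate 1). Depth limits PCK1, G6PC, FBP1 and TAT, which rest on 9 to 39 UMIs in all.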
